A study of Caenorhabditis elegans with 4 samples.

Results

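The regions described are the T26A5.5 peaks on chromosome III of Caenorhabditis elegans early embryos. They are peaks of the series-wide list on III that overlap, by at least 1 bp, a peak of the replicate 1 list and a peak of the replicate 2 list. This gave 1263 supported peaks on III out of 6097 on all chromosomes, among them 4262 on the other 4 autosomes. The protein was mapped by ChIP-seq, which recovers with an antibody the DNA crosslinked to it and reports stretches rich in sequenced reads as peaks. Both ChIP samples and both input samples, of chromatin that was not immunoprecipitated, came from wild-type N2 embryos of a population of males and hermaphrodites at 20 °C. All 4 samples share strain, stage, genotype and crosslinking (1% formaldehyde for 10 min), so the lists hold no contrast between conditions. Each peak has a start, an end and a score but no read count, and the sequencing depth is therefore unknown. Whether the replicates were separate cultures is not stated in the labels.

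T26A5.5 is named jhdm-1 in the WBcel235 gene table, which places the gene itself on III. JHDM1 proteins, called KDM2 in mammals, belong to the JmjC family of histone demethylases, and their mammalian members remove methyl groups from lysine 36 of histone H3 and are found at CpG-rich promoters. Worm autosomes have no single point centromere. Their central parts are rich in conserved and broadly expressed genes, and their arms hold more repeats and more recombination. Positions are WS220 coordinates, and genes at the peaks are not named, as a gene annotation of that build was not used here.

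The rule that chose the peaks is an overlap, so the share that met it is a description. On III 1263 of 2523 series-wide peaks met both replicates (50.1%, Wilson 95% interval 48.1 to 52.0), against 49.4% on all chromosomes and 50.4% on the other 4 autosomes pooled. Of the chosen peaks, 1106 (87.6%) were covered over their whole width in both replicates and 41 were covered over less than 50% in one. This coverage is also a description, as the replicate peaks were wider. Their median width on III was 1737 bp in replicate 1 and 1345 bp in replicate 2, against 558 bp for the chosen peaks. The smallest overlap was 3 bp, at III:1574570-1574775, and the nearest miss was a peak met by replicate 1 that ended 5 bp from a replicate 2 peak, III:5310009-5310200. These edge peaks had low scores, 2.26 and 5.20, on a series-wide scale that ran up to 120.44.

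Supported peaks were denser on III than on any other autosome, but the excess over I was small. III held 91.7 supported peaks per Mb, I 82.7, II 74.2, IV 57.9 and V 41.8. The value on III was 1.43-fold the mean of the other 4 autosomes (64.1 ± 18.1, SD over 4 chromosomes). Both ChIP samples placed III first: the replicate 1 list had 61.8 peaks per Mb on III and 28.9 to 57.7 on the others, and the replicate 2 list had 87.5 on III and 47.4 to 84.0 on the others. III made up 22.5% of the autosomal replicate 1 peaks and 21.3% of the replicate 2 peaks (mean 21.9% ± 0.872, SD, n = 2), and 16.7% of the autosomal length. With 1 chromosome against 4 the smallest p that an exact permutation over chromosomes can give is 0.2, and the two-sided exact permutation p for density was 0.4, since V lay farther below the rest than III lay above. The higher density of III is therefore a ranking of these lists. Supported peaks covered 6.62% of the length of III and 3.28% to 6.42% of the others, and in total 912 kb on III, below the 966 kb on I. Read coverage and gene content per chromosome were not adjusted for.

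The excess was not spread evenly along the chromosome. When each autosome was divided into 10 segments of equal length, III was the densest autosome in 4 of 10 segments, in the supported set and in each replicate list. It was above the median of the other autosomes in 10 of 10 segments in the supported set and in replicate 1, and in 9 of 10 in replicate 2. Segment 4, counted from the left end, held 142 supported peaks per Mb on III against 42.2 to 73.7 on the other autosomes. The replicate 1 list gave 90.7 peaks per Mb there and the replicate 2 list 119, in each list the highest segment of III. Segment 5 of III held 76.9 supported peaks per Mb, below the 100.3 of I, and segment 6 held 113.

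**Figure D1:**
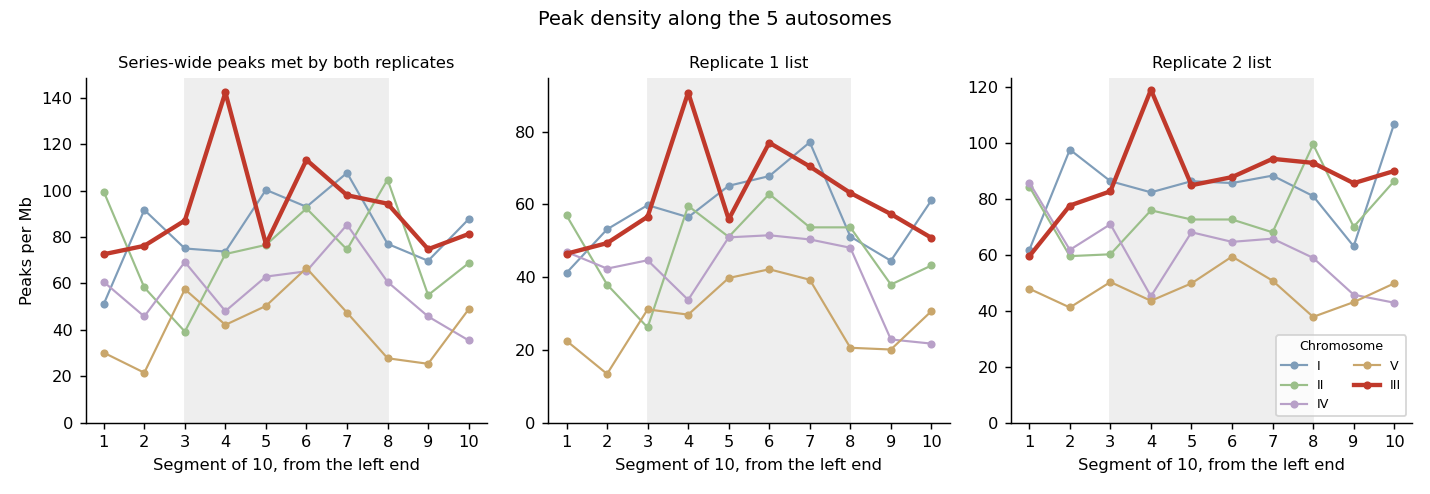
Peaks per Mb in each of 10 equal segments of the 5 autosomes, for series-wide peaks met by both replicates and for each replicate list, with the middle 50% of the chromosome shaded; each point is 1 segment of 1 chromosome. The red line of III has its highest point, 142 supported peaks per Mb, in segment 4, and 90.7 and 119 peaks per Mb there in the replicate 1 and replicate 2 lists.

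The middle 50% of III was denser in supported peaks than the outer 25% at each end, which stop at 3444819 bp on the left and start at 10334457 bp on the right. The left end held 256 peaks (74.3 per Mb), the middle 731 (106 per Mb) and the right end 276 (80.1 per Mb). The density of the outer parts was 0.728-fold that of the middle part. On the other autosomes this ratio was 0.630 on V, 0.771 on I, 0.779 on IV and 0.940 on II, so III lay within their range (exact permutation over chromosomes, two-sided p = 0.6). In the replicate 1 list the ratio on III was 0.733, and in the replicate 2 list it was 0.851, the lowest of the 5 autosomes in that list. Bins of 1 Mb overlapped between the parts: the 7 middle bins held 83 to 141 supported peaks per Mb and the 7 outer bins 67 to 93.

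The series-wide list as a whole did not show this contrast. Before support was required, the outer parts of III were the denser part, with 189 series-wide peaks per Mb on the left and 190 on the right against 177 in the middle, a ratio of 1.07. In the middle part 731 of 1217 series-wide peaks met both replicates (60.1%, 57.3 to 62.8), and in the outer parts 532 of 1306 did (40.7%, 38.1 to 43.4). The outer parts were lower by 19.3 percentage points on III, 8.80 on II, 13.4 on I, 14.2 on V and 16.7 on IV, given as a description because the rule used this support. The larger difference on III did not hold without replicate 2, where the share met by a replicate 1 peak, with or without replicate 2, differed by -11.8 points on III, 0.953-fold the mean of the other autosomes. The outer series-wide peaks of III that lacked support were met by replicate 2 alone in 296 cases (22.7%), by neither in 243 (18.6%) and by replicate 1 alone in 235 (18.0%, 16.0 to 20.2). The last share was above those of the outer parts of the other autosomes, which ran from 9.30% on II to 14.4% on IV, although its interval overlapped that of IV (12.4 to 16.6). Over the whole of III, 14.3% of series-wide peaks (13.0 to 15.8) were met by replicate 1 alone, against 10.0% to 13.0% on each other autosome. The interval of III overlapped those of IV (11.6 to 14.5) and V (10.4 to 13.3).

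The difference in support on III was widest among peaks of low score. Among series-wide peaks with a score under 5, 128 of 290 were supported in the middle part of III (44.1%, 38.5 to 49.9) and 86 of 422 in the outer parts (20.4%, 16.8 to 24.5). On the other autosomes the same class gave 36.8% in the middle and 27.6% in the outer parts. At scores from 20 to 50 the shares on III were 80.6% and 73.7%, and at 50 and above they were 97.1% and 92.6%. The other autosomes were close, with 80.9% and 70.7% from 20 to 50 and 97.8% and 92.5% at 50 and above. On III the outer shares were lower in each of the 5 score classes examined. The intervals of both parts of III overlapped in the class from 20 to 50, in that from 10 to 20 and at 50 and above.

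**Figure D2:**
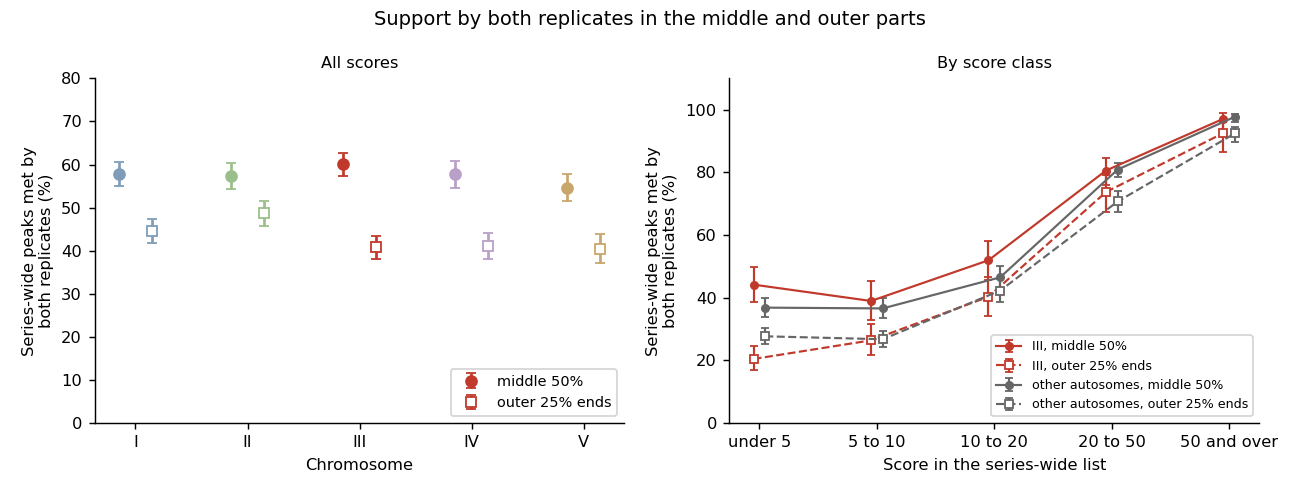
Left, percentage of series-wide peaks met by both replicates in the middle part (filled circles) and the outer parts (open squares) of each autosome; right, the same by score class for III (red) and the other 4 autosomes together (grey), with Wilson 95% intervals that cover counting error only. On III the shares were 60.1% and 40.7%, and in the class under 5 they were 44.1% and 20.4%.

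Outside the density, the parts of III were alike in peak size and differed in spacing. Median width was 557.5 bp in the left end, 544 bp in the middle and 594.5 bp in the right end, and median score was 19.84, 22.13 and 21.45. Peaks over 1000 bp made up 16.6% of the middle (14.0 to 19.4), 19.9% of the left end and 22.5% of the right end, with overlapping intervals. More of the outer peaks had a neighbour within 1000 bp, 76.2% on the left (70.6 to 81.0) and 69.9% on the right (64.3 to 75.0) against 61.6% in the middle (58.0 to 65.0). The other autosomes together had the same direction, with 68.2% on the left, 71.5% on the right and 59.1% in the middle. Peaks that close were then merged into 1 region. On III the outer parts held 35.7 and 42.1 regions per Mb and the middle 63.1. On the other autosomes together the outer parts held 29.9 and 28.5 and the middle 42.8. The contrast between the parts of III was thus larger in separate regions (ratio 0.618) than in peaks (0.728).

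Bin by bin, every whole 1 Mb bin of III was above the median of the other autosomes' bins. The 13 whole bins of III held 67 to 141 supported peaks with a median of 92, and the 67 whole bins of the other autosomes held 13 to 122 with a median of 64. Taken singly, the bin median was 77 on I, 70 on II, 61 on IV and 43 on V. The densest bins of III were 4 to 5 Mb with 141, 5 to 6 Mb with 112 and 9 to 10 Mb with 105. The first Mb was the sparsest with 67, followed by 11 to 12 Mb with 70 and 2 to 3 Mb with 73. These sparsest bins were all below the median bin of I. In number of supported peaks, only the bin from 4 to 5 Mb was above the highest bin of any other autosome. On III 4 bins held 100 or more, as did 4 on the other autosomes. Over the 13 bins of III the replicate 1 and replicate 2 counts had a Pearson r of 0.768 and a Spearman rho of 0.795, as a description of bins that share a chromosome. Without the 4 to 5 Mb bin, III still had 87.8 supported peaks per Mb, above I, and its middle part 100.2. The densest window of 100 kb on III lay outside that bin, from 6900001 to 7000000, with 26 supported peaks but 8 peaks in each replicate list and a median score of 10.24. The windows with no supported peak were 3 on the left arm.

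The bin from 4 to 5 Mb was the densest of III in each list, with 88 replicate 1 peaks, 117 replicate 2 peaks and 236 series-wide peaks. It was named with earlier results of these data known, so its count is a description. Its 141 supported peaks covered 94.1 kb and fell in 79 regions more than 1000 bp apart, also the most of any bin on III. They met 77 replicate 1 peaks and 73 replicate 2 peaks. Their median width was 511 bp and their median score 19.99, against 561.5 bp and 21.50 in the rest of III. Peaks over 1000 bp made up 14.9% (10.0 to 21.7) of the bin and 19.0% (16.8 to 21.4) of the rest, and the intervals overlapped.

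Within the bin the peaks were concentrated in 3 windows of 100 kb. The window from 4.4 to 4.5 Mb held 25 supported peaks, that from 4.5 to 4.6 Mb held 21 and that from 4.3 to 4.4 Mb held 19, against a median of 8 over the 138 windows of III. The replicate lists did not rise there in the same way, with 8 to 9 replicate 1 peaks and 10 to 12 replicate 2 peaks in each of these windows. The 65 supported peaks of the 3 windows met 22 replicate 1 and 20 replicate 2 peaks, 2.95 and 3.25 supported peaks for each. In the other 7 windows the figures were 1.38 and 1.43. The 65 peaks also scored low, with a median of 7.17 against 29.1 in the rest of the bin, and 25 of them had a score under 5 (38.5%, 27.6 to 50.6) against 8 of 76 (10.5%, 5.43 to 19.4). The replicate peaks that held them were up to 7250 bp wide in replicate 1 and 12619 bp in replicate 2. The sparsest window, from 4.7 to 4.8 Mb, held 2 supported peaks, 3 replicate 1 peaks and 10 replicate 2 peaks.

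**Figure D3:**
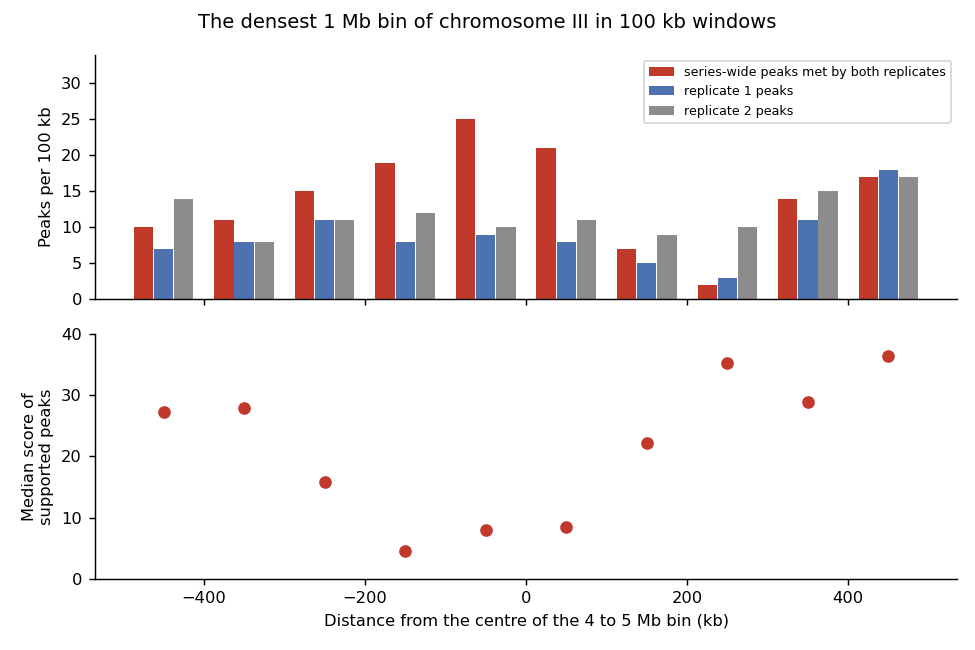
Above, supported, replicate 1 and replicate 2 peaks in each 100 kb window of the 4 to 5 Mb bin of III, placed by distance from the centre of the bin; below, the median score of the supported peaks in each window. The 3 windows with 19, 25 and 21 supported peaks have 8 to 9 replicate 1 peaks each and the lowest median scores, 4.49 to 8.43.

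The strongest single peak of the bin, III:4092833-4095074, had a score of 93.55 and met replicate peaks scored 1934 in replicate 1 and 3100 in replicate 2. Its widest, III:4275611-4282011, spanned 6401 bp with a score of 77.29 and met a replicate peak scored 3100 in each list. The largest group of the bin lay at III:4358961-4365360, where 10 supported peaks within 6400 bp had a median score of 4.81. The strongest and the widest peak both lay outside the 3 windows that held the most peaks, in which the highest score was 84.51, at III:4498029-4499460.

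The highest scores on III were found in all parts of the chromosome. The maximum of the series-wide list, 120.44, was reached by 3 supported peaks on III, 1 in each part, out of 9 on all chromosomes. The left one, III:341672-349799, was 8128 bp wide and met replicate peaks scored 3100 in both lists. The middle one, III:7142040-7142514, was 475 bp wide and also met 3100 in both. The right one, III:12596469-12602241, was 5773 bp wide and lay in replicate peaks of 22737 bp and 21096 bp, scored 2526 in replicate 1 and 3100 in replicate 2. A maximum score thus occurred in a narrow peak and in broad ones alike.

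The other 7 of the 10 highest had scores from 109.5 to 116.4. On the right arm they were III:11123528-11124249, III:12366977-12369054 and III:11090723-11091190. In the middle part they were III:5653596-5654046, III:10090166-10091879 and III:6479157-6481614, and on the left III:1616045-1617231. Their widths ran from 451 bp to 2458 bp. Each met a replicate 2 peak of 3100 except III:10090166-10091879, where the replicate 2 score was 2279. The replicate 1 score was 3100 for 5 of the 7, 2018 at III:11123528-11124249 and 532 at III:5653596-5654046, the lowest replicate 1 score among the 10 peaks. A score of 3100 recurs in the replicate lists. Of all 1263 supported peaks of III, 427 (33.8%) reached it in replicate 2 and 208 (16.5%) in replicate 1.

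The shares of supported peaks wider than 2000 bp and of top replicate scores were lowest on III among the 5 autosomes, within overlapping intervals. Supported peaks wider than 2000 bp made up 43 of 1263 on III (3.40%, Wilson 95% interval 2.54 to 4.55) and 4.74% to 5.56% on each other autosome. Replicate 1 peaks with a score of 3100 or more made up 8.23% on III (6.56 to 10.3) and 9.90% to 10.4% on the others, and replicate 2 peaks 13.0% (11.2 to 15.0) against 15.8% to 17.0%. III was the lowest of 5 in each of the 3 shares, for which the exact permutation p over chromosomes was 0.2, the smallest it can give. At a cut of 5000 bp III was not the lowest. It had 4 such supported peaks, as on I, II and V. They made up 0.317% on III and 0.296% to 0.459% on the other autosomes. Replicate 1 peaks wider than 5000 bp made up 8.70% on III and 8.31% to 9.76% on the others. In replicate 2 they made up 6.31% against 5.56% to 8.38%.

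**Figure D4:**
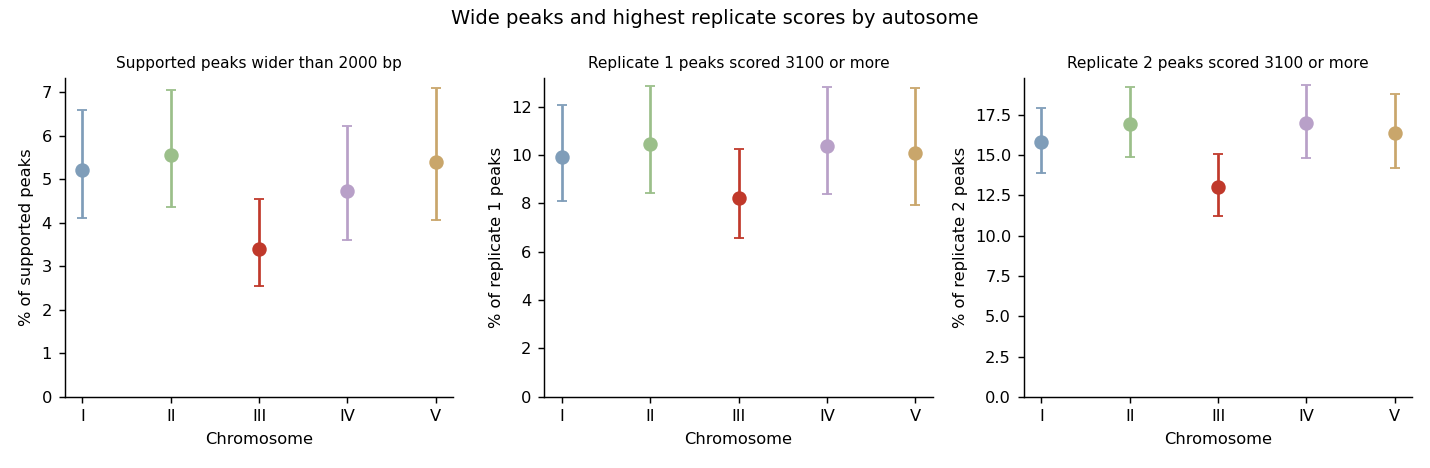
Percentage of supported peaks wider than 2000 bp, and of replicate 1 and replicate 2 peaks with a score of 3100 or more, on each autosome, with Wilson 95% intervals that cover counting error only. III has the lowest value in each panel, 3.40%, 8.23% and 13.0%, with intervals that overlap those of the other autosomes.

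The typical peak of III differed little from those elsewhere. Median width was 558 bp (interquartile range 379.5 to 850.5) on III and 560 to 592 bp on the other autosomes, and median score was 21.19 (7.52 to 42.48) against 21.64 to 23.44. Both medians were the lowest of 5, with exact permutation p-values over chromosomes of 0.4 for width and 0.2 for score. When only a replicate 2 peak was required, without replicate 1, the median score on III was 13.97. Widths ran from 146 bp to 10303 bp. Score rose with width across the 1263 peaks, with a Spearman rho of 0.633, and the coefficient was 0.584 to 0.648 on the other autosomes. Peaks of up to 200 bp had a median score of 3.62 and those over 2000 bp one of 61.52.

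The widest supported peak of III, III:1445962-1456264, spanned 10303 bp with a moderate score of 51.40. It was followed by III:341672-349799 (8128 bp), III:4275611-4282011 (6401 bp), III:12596469-12602241 (5773 bp) and III:5939204-5944192 (4989 bp). These 5 scored between 51.40 and 120.44. All 5 met replicate 2 peaks scored 3100, as did 33.8% of all supported peaks of III. They met replicate 1 peaks scored from 2269 to 3100.

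Neighbouring peaks of III often lay within 1000 bp of each other. Such groups held 840 of the 1263 peaks (66.5%, 63.9 to 69.1), in 279 groups, and 423 peaks stood alone. The share on the other autosomes ran from 61.8% to 65.7%, so III was the highest by a small margin (two-sided exact permutation p = 0.4 over chromosomes). Groups were small, since 141 held 2 peaks and 82 held 3, and 34 held 5 or more. On III there were 1.86 supported peaks for each replicate 1 peak they met and 1.75 for each replicate 2 peak, the highest of the 5 autosomes in both, where the others had 1.73 to 1.80 and 1.65 to 1.72. In the replicate lists themselves, 31.0% of replicate 1 peaks and 48.0% of replicate 2 peaks on III had a neighbour within 1000 bp.

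The largest group, III:12595415-12619272, held 13 supported peaks over 23858 bp of the right arm, of which they covered 20792 bp. It included 1 of the 3 peaks of III at the maximum score, and the 13 together met 2 replicate 1 and 3 replicate 2 peaks. After the group of 10 in the 4 to 5 Mb bin came 2 groups of 9, at III:1616045-1627008, which holds 1 of the 10 highest-scored peaks, and at III:12128690-12135744. Next were 5 groups of 8 with equal rank, of which III:1458972-1467131 lay next to the group that holds the widest peak of III. In the groups of 9 or more the median score was 4.81 to 15.24, below the 21.19 of all supported peaks on III.

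Gaps between neighbouring supported peaks were shorter on III than on the other autosomes. The median gap was 1422.5 bp on III and 1762 to 2237 bp on the others, and the upper quartile 9562 bp against 12733 to 22801 bp. Both were the lowest of the 5 chromosomes, with exact permutation p-values over chromosomes of 0.2 and 0.4. By upper quartile the chromosomes stood in the reverse of their order in supported peaks per Mb. That quartile therefore cannot be read apart from density. Among peaks at or above the median score the median gap of III was 4816 bp. III had 67 gaps over 50 kb, which made up 38.3% of its length, and I had 70, which made up 37.1%. On II, IV and V such gaps took 45.3%, 60.6% and 70.3% of the length.

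**Figure D5:**
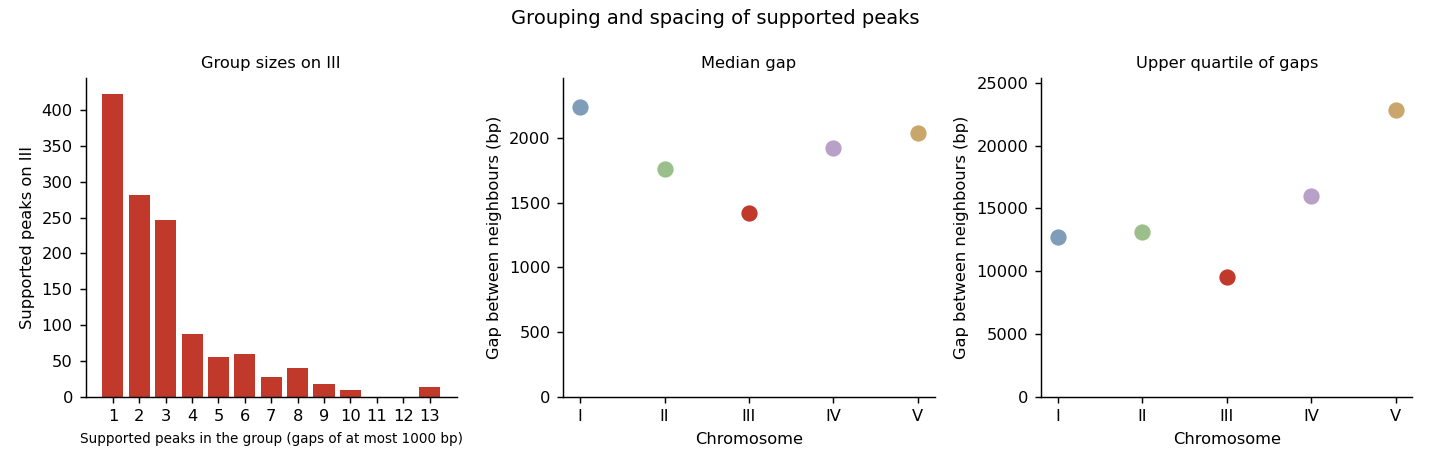
Left, number of supported peaks on III by the size of the group they belong to, where peaks at most 1000 bp apart are joined and 423 peaks stand alone; centre and right, the median and the upper quartile of the gap between neighbours on each autosome. III has the lowest value in both, 1422.5 bp and 9562 bp.

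The longest gaps of III lay in its outer parts, 4 of the 5 on the left. The longest ran from 1627009 to 1826399 (199 kb), and began where the group of 9 on the left arm ended. Next were 1219471 to 1406003 (187 kb), 1958813 to 2107271 (148 kb), 13120009 to 13256294 (136 kb) and 646975 to 772814 (126 kb). None of these was empty of peaks in every list. The longest contained or touched 5 series-wide, 3 replicate 1 and 4 replicate 2 peaks, none of them a series-wide peak met by both replicates, and the gap of 148 kb contained 15 series-wide peaks. The longest gap on III was the shortest such maximum of the 5 autosomes, whose longest gaps were 217 kb on I, 236 kb on II, 418 kb on IV and 560 kb on V. This order is the reverse of that in supported peaks per Mb, so the longest gap cannot be read apart from density. The left end of III had no supported peak in its first 68443 bp and the right end none in its last 5678 bp.

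Some replicate peaks of III had no series-wide partner. In replicate 1 these were 9 of 851 peaks (1.06%, 0.557 to 2.00), the highest share of the 5 autosomes, where the others had 0.542% to 0.993%. In replicate 2 they were 167 of 1205 (13.9%, 12.0 to 15.9), the lowest share, where the others had 15.7% to 17.9%. The intervals of III overlapped those of each other autosome in replicate 1 and in replicate 2. The highest in replicate 1 were III:1299223-1303479 and III:7443880-7449145, both scored 3100, and III:449808-452734, scored 445. In replicate 2 they were III:13474176-13477055, scored 2457, III:5318124-5320864, scored 976, and III:6016631-6020203, scored 761. Of these 6 only III:5318124-5320864 met a peak of the other replicate. The first replicate 1 peak lies inside the gap of 187 kb on the left arm. In the opposite direction, the highest-scored series-wide peaks of III that lacked a replicate were III:8172302-8173220, with a score of 82.35 and a replicate 2 peak alone, III:62461-64244, with 79.77 and replicate 1 alone, and III:2564277-2564572, with 66.79 and replicate 2 alone. Of the 260 series-wide peaks of III scored 50 or more, 247 were supported (Wilson 95% interval 91.6% to 97.1%). On the other autosomes together 899 of 943 such peaks were (95.3%, 93.8 to 96.5), and the intervals overlapped. The count is therefore not particular to III.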

How the data were processed

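The deposited files are 3 peak lists in WormBase WS220, per the file headers: 1 for each ChIP replicate, made with MACS, and 1 for the series, made with MACS v2, per the files' source column. BWA and ce10 are named in the submitters' processing notes without a role. Cut-offs, the control and any pooling of reads are not stated in the labels or headers. The deposited score of each peak has no stated unit and was compared only within a list. The inputs have no file of their own here.

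Chromosome length is the highest peak end in any list, and a peak belongs to the bin or part that holds its midpoint, where the outer parts are 25% of the length at each end. Named regions are the 10 highest-scored and 5 widest peaks, the 5 largest groups (ties by position), the 5 longest gaps, the 3 densest and sparsest bins, and the 3 highest-scored replicate peaks with no series-wide partner; other peaks were named after their values were seen. The members, comparisons and lists were chosen with earlier results of these data known. Comparisons of III with the other 4 autosomes used an exact two-sided permutation of chromosome labels. Wilson intervals reflect counting error alone and treat neighbouring peaks as independent, which they are not. Overlap, grouping and parts were tested on simulated lists. Tables were handled in pandas 2.3.3 and numpy 2.4.6 under Python 3.11.15, intervals came from scipy 1.17.1 and plots from matplotlib 3.10.9.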

Additional observations from a re-analysis of the deposited data

How the results depend on the processing

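The density of III stayed above the mean of the other autosomes in all 14 alternatives, from 1.28-fold without chromosome V to 1.58-fold without chromosome I. It was 1.37-fold in separate regions and also without the 4 to 5 Mb bin, an alternative added after the data were seen. The ratio of outer parts to middle, 0.728, was 1.07 with all series-wide peaks, which reversed it. It was 0.866 and 0.894 without replicate 1 and replicate 2, 0.851 in the replicate 2 list alone, 0.839 in base pairs covered, 0.618 in separate regions and 0.882 with 33.3% at each end. The bin from 4 to 5 Mb was the densest of III in each alternative that ranked the bins, with 79 separate regions, 88 replicate 1 peaks, 236 series-wide peaks and 91 supported peaks of at least median score, and 160 to 190 peaks with 1 replicate left out. The share of peaks in groups, 66.5%, was 38.2% at or above the median score, 63.7% with all series-wide peaks, 31.0% and 48.0% in the replicate 1 and replicate 2 lists, 55.2% and 76.2% with joining gaps of 500 bp and 2000 bp, and 63.2% to 70.2% with 1 replicate left out. The share on III was above the mean of the others in all 9 alternatives. The median gap was 4816 bp at or above the median score, 7681 bp between groups and 1203 to 1460 bp with 1 replicate left out, below the mean of the others in all 6. Median width was 688 bp at or above the median score, 391 bp with all series-wide peaks and 466.5 to 497 bp with 1 replicate left out. Median score was 9.93 with all series-wide peaks and 13.97 to 15.75 with 1 replicate left out, and its ratio to the other autosomes ran from 0.889 to 1.02. The share supported was 69.2% at or above the median score. Peaks wider than 2000 bp made up 4.68% at or above the median score and 1.86% of all series-wide peaks, and 2.63% to 2.65% with 1 replicate left out. Support in the outer parts minus that in the middle was -10.1 points at or above the median score, -12.2 with 33.3% at each end, and -15.2 to -11.8 with 1 replicate left out. Its ratio to the mean of the other autosomes ran from 0.953, without replicate 2, to 2.09, and was above 1 in 5 of 6 alternatives. The shares of wide peaks and of support by part, with their alternatives, were added after seeing the data. The shares of replicate peaks scored 3100 or more were not among the planned comparisons either. The cause was not tested in any setting. No paired analysis was possible because the inputs, which share replicate numbers with the ChIP samples, have no peak list or other file here. Depth is unknown, so a region without a peak cannot be told from one with too few reads.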
